A study of Mus musculus with 4 samples.

Results

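Genes of the heat shock response and of the unfolded protein response were examined in CD4+ lymphoma cells and in normal CD4+ splenocytes. The genes were taken from a list of 39 chaperones, co-chaperones, degradation factors and stress regulators, and 36 of them had a probe set annotated to that one symbol, out of 19938 genes measured. Hsp90ab1 and Hsf1 had no such probe set. Hspa1b shared its probe set with Hspa1a, so it has no value of its own. RNA came from 4 samples on 1 Affymetrix array each. In 2 samples, CD4+ splenocytes of wild type mice were used. The other 2 held CD4+ lymphoma cells from spleens of Tet2 gene trap mice with both alleles trapped. The trap, a cassette inserted into the gene, cuts its transcript short, and Tet2 is an enzyme that oxidises methylated cytosine in DNA. All mice were of strain C57BL/6, the labels name no treatment other than the cell separation, and the sources used here state neither an age nor how many animals gave each sample. All 4 suspensions were freed of red cells, labelled with a CD4 antibody and collected on magnetic columns. The lymphoma samples differ from wild type in genotype and in being malignant, and these effects cannot be told apart. The p-values measure the spread between these samples, which may be technical.

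Chaperones bind unfolded protein and keep it from aggregating. Cytosolic HSP70 and HSP90 proteins work with J proteins and other co-chaperones, and the chaperonin TRiC is a ring that folds actin and tubulin. Mitochondria hold an HSP70 of their own, Hspa9, and the HSP60 and HSP10 chaperonin pair, Hspd1 and Hspe1. Heat or other proteotoxic stress activates the transcription factor HSF1, which binds heat shock elements upstream of many of these genes. Unfolded protein in the endoplasmic reticulum (ER) is sensed by ATF6, IRE1 (gene Ern1) and PERK (gene Eif2ak3), which raise ER chaperones and the machinery of ER-associated degradation. Antibody-secreting plasma cells are known for high expression of ER folding genes.

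The upstream sequences of these genes were examined for exact matches to elements of each response. RefSeq promoter windows (GRCm38.p6) were at hand for 31 of the 39 genes, and the 250 bases before each start were searched on both strands. Hspa8, Hspa9, Hsp90aa1, Hsp90ab1, Hsf1, Hyou1, Manf and Atf6 had no window and were not searched. A gene without a match may still carry an element farther away or in other letters. The heat shock element was searched as the 3 units GAA, TTC and GAA with 2 bases between neighbours. It was found for 0.514% of the 27025 genes with a window and, among the 31, for Hspd1 and Hspe1. The form with the first 2 units, GAANNTTC, which the longer one contains, was found for 7.73% of all these genes. It was found for 7 of the 31 genes, namely Cct2, Dnaja1, Hspa1a, Hspa1b, Hspb1, Hspd1 and Hspe1. The ER stress response element, CCAAT followed after 9 bases by CCACG, was found for 0.13% of all these genes and for 6 of the 31. Its second form, ATTGG followed after 1 base by CCACG, was found for 0.037% of all these genes and only for Herpud1 among the 31. The unfolded protein response element TGACGTGG, found for 0.603% of all these genes, was found for none of the 31. Such matches describe letters and do not show that a factor binds. The matches are printed in capitals with 20 bases on either side, 5′ to 3′ on the strand of the gene. They are shown so that the carriers of each element can be set beside their values. Carriers of the first ER stress response element had differences of both signs, and the second ER form had 1 carrier. Hspd1 and Hspe1, which share the same 3-unit heat shock element, had positive differences, as did 43.8% of all genes. The Hspe1 difference was negative without lymphoma array 1 (-0.17) or without wild type array 2 (-0.02). Measured carriers of the 2-unit form had differences of both signs.
Hspd1, chr1:55088039-55088096, minus strand: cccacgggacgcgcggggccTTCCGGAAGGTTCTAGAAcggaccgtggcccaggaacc
Hspa5, chr2:34772005-34772063, plus strand: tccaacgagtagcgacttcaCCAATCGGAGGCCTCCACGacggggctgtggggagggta
Pdia6, chr12:17266471-17266529, plus strand: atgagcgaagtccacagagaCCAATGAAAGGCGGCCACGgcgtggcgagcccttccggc
Hsp90b1, chr10:86705618-86705676, minus strand: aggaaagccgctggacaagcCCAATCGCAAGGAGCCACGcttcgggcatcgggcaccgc
Hsp90b1, chr10:86705513-86705571, minus strand: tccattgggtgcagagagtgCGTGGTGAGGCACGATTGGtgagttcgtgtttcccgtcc
Dnajc3, chr14:118937807-118937865, plus strand: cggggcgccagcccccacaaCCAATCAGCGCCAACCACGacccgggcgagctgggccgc
Creld2, chr15:88819500-88819558, plus strand: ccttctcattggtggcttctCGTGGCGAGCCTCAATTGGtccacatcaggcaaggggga
Syvn1, chr19:6046512-6046570, plus strand: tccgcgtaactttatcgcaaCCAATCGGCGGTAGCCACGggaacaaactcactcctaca
Herpud1, chr8:94386357-94386407, plus strand: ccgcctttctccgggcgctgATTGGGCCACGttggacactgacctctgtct

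The first stretch lies between divergent starts of Hspd1 and Hspe1, which are 215 bases apart there, so the same letters stand upstream of both genes. In it, matches on both strands overlap to give 18 bases in capitals. Before their starts, Hspa1a and Hspa1b were alike in 247 of 250 bases.

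The arrays had similar overall signal, with median intensities between 130 and 142 over all probe sets. Log2 values correlated across probe sets at r = 0.980 between the wild type arrays, at 0.973 between the lymphoma arrays and at 0.955 to 0.965 between groups. Tet2 had intensities of 980 and 1016 in wild type and of 596 and 399 in lymphoma, with an adjusted p of 0.0771 (limma). The T cell genes Cd3d, Cd3e, Cd3g and Cd4 were well measured, each with higher values on both lymphoma arrays, and the 6 measured genes of the T cell list had a median difference of 0.39 (range -0.92 for Cd5 to 0.63 for Cd3d). Medians of the neutrophil, erythroid and CD8 T and NK cell lists were 0.15, -0.06 and -0.98. Genes of other spleen cells had lower values on both lymphoma arrays for 9 of 9 B cell, 10 of 10 macrophage and monocyte, 7 of 8 dendritic cell and 5 of 6 plasma cell markers. Of all genes, 23.5% had both lymphoma values below both wild type values. Summed intensity of the plasma cell list was 5879 to 9895 on the wild type arrays and 1652 to 1673 on the lymphoma arrays. Of these markers, Jchain had 519 and 89.5 on the lymphoma arrays. The second value lay below the median of 130 over all probe sets of lymphoma array 2. Of 11 cell division genes, 11 had higher values on both lymphoma arrays, against 20.6% of all genes, with a median difference of 1.16. The part of this change in cell mix and in cell division in any result given here was not tested, and fewer cells of a type cannot be told apart from less RNA per cell.

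None of the 36 genes passed an adjusted p of 0.05 in limma in either direction (Benjamini-Hochberg over all genes), where 1.82% of all genes passed as higher and 2.46% as lower. At an unadjusted p under 0.05 in limma, 10 of the 36 were higher and 3 were lower in lymphoma, which is 27.8% and 8.33% against 8.73% and 6.92% of all genes. Both lymphoma values lay above both wild type values for 15 genes and below them for 6, and the groups overlapped for 15. Among all genes, 20.6% lay wholly above and 23.5% wholly below. The median log2 difference, lymphoma minus wild type, was 0.23 over the 36 genes and -0.04 over all genes. ER-associated degradation and the 3 measured ER stress sensors (median -0.29) had negative medians, and the other compartments had positive ones. Cytosolic chaperones had a median of 0.45 (15 genes), mitochondrial chaperones 0.39 (3 genes), ER chaperones and folding enzymes 0.03 (11 genes) and ER-associated degradation genes -0.36 (4 genes). These medians describe the lists, and no test of the difference between compartments was made.

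**Figure D1:**
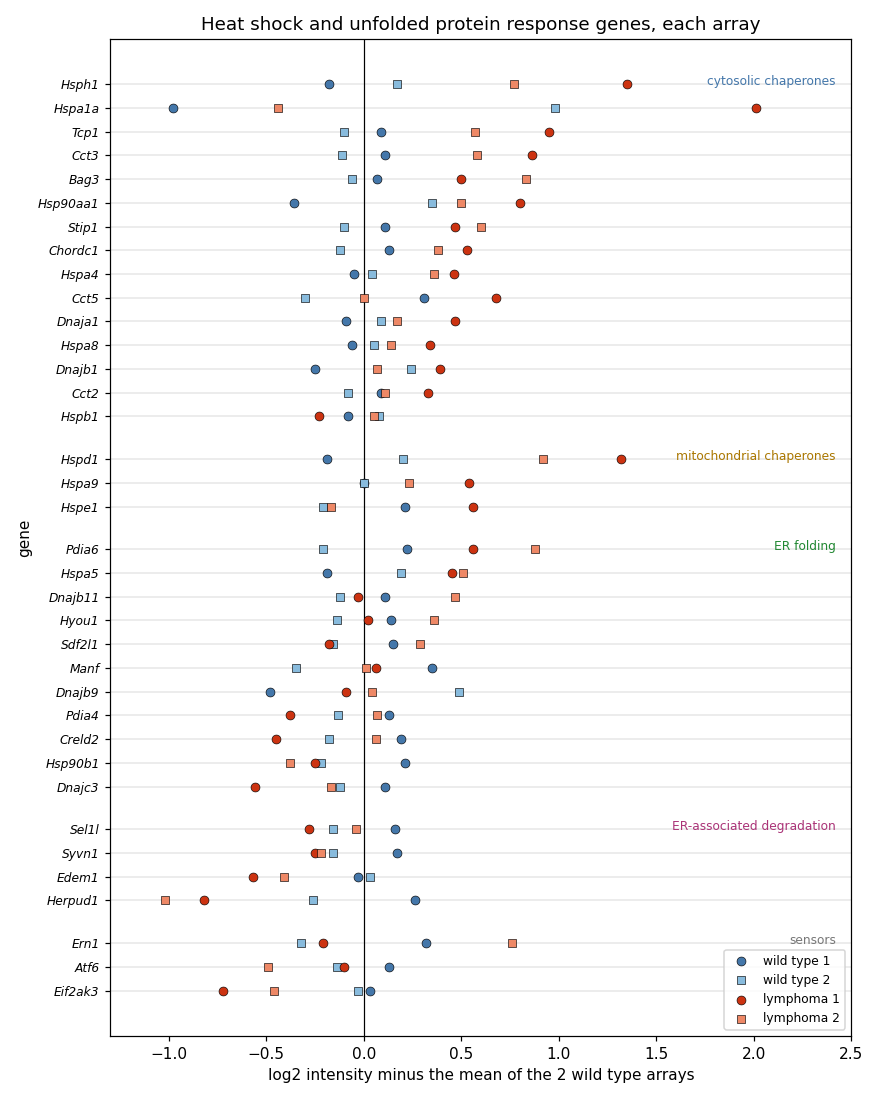
Log2 intensity of each of the 36 genes on each of the 4 arrays, minus the mean of the 2 wild type arrays for that gene (x axis), with genes grouped by compartment (y axis). Lymphoma points lie to the right of both wild type points for 11 of 15 cytosolic genes, and to the left for 3 of 4 genes of ER-associated degradation. Over all genes these shares are 20.6% to the right and 23.5% to the left.

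Among cytosolic chaperones, 14 of 15 measured genes had a positive difference, against 43.8% of all genes. That share over all genes was 50% under quantile normalization, 51.5% with the dimmest genes left out and 56.1% with array medians subtracted. Both lymphoma values exceeded both wild type values for 11 of the 15 cytosolic genes, against 20.6% of all genes. The largest difference was that of Hsph1, an HSP110 protein that acts as exchange factor for HSP70. Its intensity was 366 and 469 in wild type and 1063 and 710 in lymphoma. Both lymphoma arrays were high and the groups did not overlap. The log2 difference was 1.07 (SE 0.26, 95% interval 0.44 to 1.69, adjusted p = 0.0894 in limma). Without lymphoma array 2 it was 1.36 with an adjusted p of 0.00139, where the wild type pair alone sets the spread and 1 array stands for the lymphoma group. Leaving out lymphoma array 1 gave 0.78 (0.0909), wild type array 1 gave 0.89 (0.427) and wild type array 2 gave 1.25 (0.302).

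Hspa8, the constitutive cytosolic HSP70, had intensities of 7206 and 7763 in wild type and of 9488 and 8260 in lymphoma. Its groups were close without overlapping, and the difference was 0.24 (SE 0.14), or 0.14 without lymphoma array 1. Its other probe sets of that one symbol gave 0.44 and 0.26, also without overlap. In a pair of probe sets annotated to Hspa8 and small nucleolar RNAs the groups overlapped, with a difference of 0.22 in each. Hspa4, another HSP110 family member, had 1273 and 1348 against 1809 and 1684, with little spread within each group. Its difference was 0.41 (SE 0.17, adjusted p = 0.298 in limma).

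Hspa1a, the HSP70 gene most strongly induced by heat, behaved differently from Hspa8 and Hspa4. Its intensity was 266 and 1035 in wild type and 2126 and 389 in lymphoma. One array of each group was high, so the groups overlapped, and the spread within groups (SD 1.38 and 1.73 on the log2 scale, n = 2 each) exceeded the difference of 0.79 (SE 0.90). The probe set annotated to both Hspa1a and Hspa1b had the same pattern, with 490, 1704, 4001 and 566. The Hspa1a difference was 2.02 when lymphoma array 2 was left out (adjusted p = 0.00543 in limma). It was -0.43 when lymphoma array 1 was left out and -0.19 when wild type array 1 was, so 1 array decided its direction. Dnajb1, the J protein that partners the inducible HSP70, also overlapped between groups, with 383 and 539 against 596 and 477. Its highest arrays were the same as those of Hspa1a, wild type array 2 and lymphoma array 1.

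Hsp90aa1, the inducible cytosolic HSP90, had 2202 and 3588 in wild type and 4891 and 3990 in lymphoma. The groups did not overlap, although wild type array 2 came near lymphoma array 2. The difference was 0.65 (SE 0.26, adjusted p = 0.296 in limma), and its other probe sets gave 0.62 and 0.72. It was 0.30 when wild type array 1 was left out and 1.00 when wild type array 2 was. Stip1, which links HSP70 to HSP90, had 1072 and 926 against 1375 and 1505 (difference 0.53, SE 0.18). Chordc1, an HSP90 co-chaperone, had 838 and 704 against 1107 and 999 (0.45, SE 0.19). For all 3 measured genes of this role the lymphoma values lay above the wild type range, as for 20.6% of all genes.

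Bag3, a co-chaperone that joins HSP70 to selective autophagy, had 427 and 390 in wild type and 576 and 723 in lymphoma. The groups were clearly apart, and the difference was 0.66 (SE 0.20, adjusted p = 0.159 in limma). Dnaja1, a J protein of cytosolic HSP70, had 1238 and 1401 against 1826 and 1483 (0.32, SE 0.19). Its other probe set of that one symbol differed by 0.39, with overlapping groups. A probe set annotated to both Mir207 and Dnaja1 went the other way, with 1465 and 1486 against 1399 and 1080 (-0.26). Hspb1, the small heat shock protein HSP27, was dim on all arrays, between 113 and 140, and its difference was -0.10 (SE 0.19) with overlapping groups. It was the only one of the 15 cytosolic genes with a negative difference.

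The chaperonin TRiC has 8 subunits in a ring, of which Tcp1, Cct2, Cct3 and Cct5 belong to the list of 39. Tcp1 had 1403 and 1230 in wild type and 2536 and 1953 in lymphoma (difference 0.76, SE 0.20, adjusted p = 0.111 in limma). Cct3 had 1137 and 979 against 1916 and 1572 (0.72, SE 0.19, adjusted p = 0.118 in limma). For both genes the lymphoma arrays were well above the wild type arrays. Without lymphoma array 2 the differences were 0.95 for Tcp1 (adjusted p = 0.0156 in limma) and 0.86 for Cct3 (0.0339). Without lymphoma array 1 they were 0.57 (0.222) and 0.58 (0.232), and without either wild type array neither gene passed (adjusted p of 0.325 to 0.515 in limma). Cct2 had 3352 and 2969 against 3945 and 3408, a small difference of 0.22 (SE 0.16). Cct5 had 1631 and 1065 against 2107 and 1311, with overlapping groups, and its difference of 0.33 became -0.01 without lymphoma array 1. With the other 4 subunits added, 8 of 8 had a positive difference, against 43.8% of all genes. That share over all genes was 50% to 56.1% under the alternatives named above for the cytosolic genes. Both lymphoma values lay above both wild type values for 6 of the 8 subunits, against 20.6% of all genes. None passed the adjusted p and the median was 0.46. A further list of 10 genes, made of these other 4 TRiC subunits and of prefoldin subunits, had 9 positive differences, none called. Its median was 0.31. In it, Cct8 differed by 0.56 (SE 0.20) and Cct7 by 0.48 (SE 0.17).

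The 3 mitochondrial chaperones all had positive differences, with a median that ran from 0.23 without lymphoma array 1 to 0.56 without lymphoma array 2. Hspd1, the mitochondrial HSP60, had 972 and 1280 in wild type and 2771 and 2104 in lymphoma. Both lymphoma arrays were high, the groups were far apart, and the difference of 1.11 was the largest of the 36 genes (SE 0.22, 95% interval 0.57 to 1.66, adjusted p = 0.0523 in limma). Its other probe set, with 546, 797, 1953 and 1331, differed by 1.29. The adjusted p passed with array medians subtracted (0.0407), with the dimmest genes left out (0.0444), with a robust variance trend (0.0342), without lymphoma array 1 (0.0300) and without lymphoma array 2 (0.0014). It missed the threshold under quantile normalization (0.0833), with the replicate block (0.0718), without a variance trend (0.0625), with probe sets averaged (0.0573), with a pseudocount of 16 (0.0550) and without wild type array 1 (0.321) or 2 (0.186).

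Hspe1, the HSP10 lid of the same chaperonin, had 2565 and 1916 in wild type and 3261 and 1969 in lymphoma. The groups overlapped, because lymphoma array 2 lay within the wild type range, and the difference was 0.19 (SE 0.28, 95% interval -0.49 to 0.88). Leaving out lymphoma array 1 gave -0.17, and leaving out wild type array 2 gave -0.02. Hspd1 and Hspe1 flank the same heat shock element letters, and whether their differences are unequal was not tested. Hspa9, the mitochondrial HSP70, had 1380 and 1378 against 1999 and 1623 (0.39, SE 0.18, adjusted p = 0.396 in limma), and 0.23 without lymphoma array 1. Among 14 other mitochondrial chaperones and proteases none passed, 12 had a positive difference and the median was 0.11. The largest differences there were those of Afg3l2, an inner membrane protease (0.60, SE 0.20), and Clpp, a matrix protease (0.40, SE 0.21).

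**Figure D2:**
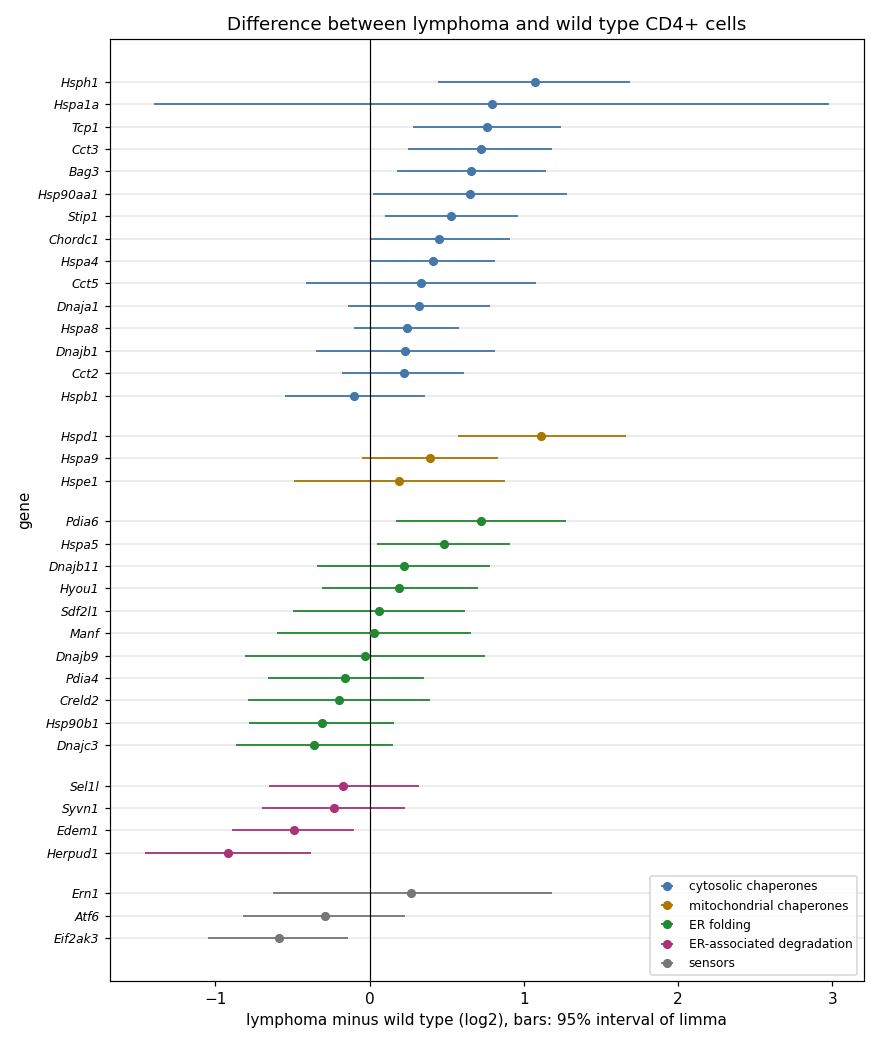
Log2 difference between lymphoma and wild type (x axis) for each of the 36 genes (y axis), as points with 95% intervals from limma, coloured by compartment. The interval, not adjusted for the number of genes, lies wholly above 0 for 10 genes, with Hspd1 (0.57 to 1.66) and Hsph1 (0.44 to 1.69) the farthest out, and wholly below 0 for Herpud1 (-1.46 to -0.38), Edem1 and Eif2ak3, and that of Hspa1a is the widest (-1.40 to 2.98).

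ER chaperones and folding enzymes went both ways, with 6 positive and 5 negative differences among 11 genes. Hspa5, the ER HSP70 known as BiP, had 3351 and 4365 in wild type and 5225 and 5452 in lymphoma. Both lymphoma arrays exceeded the wild type range, with a difference of 0.48 (SE 0.18, adjusted p = 0.252 in limma), or 0.29 without wild type array 1. Pdia6, a protein disulfide isomerase, had 661 and 490 against 839 and 1045, without overlap, and differed by 0.72 (SE 0.23, adjusted p = 0.182 in limma). These were the only genes of this compartment that lay wholly above wild type, or 18.2% of it against 20.6% of all genes.

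Hsp90b1, the ER HSP90 known as GRP94, had 3508 and 2618 in wild type and 2560 and 2333 in lymphoma. The lymphoma values lay just below the wild type range, with a difference of -0.31 (SE 0.19), or -0.10 without wild type array 1. Dnajc3, the ER J protein p58IPK, had 1436 and 1230 against 904 and 1186 (-0.36, SE 0.21), again just below, and -0.16 without lymphoma array 1. Hspa5, Pdia6, Hsp90b1 and Dnajc3 all carry the ER stress response element printed above, and their differences had both signs. None of these differences passed the adjusted p.

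The other 7 ER genes overlapped between groups, with differences between -0.20 and 0.22. Dnajb9, a J protein induced through IRE1, had 960 and 1881 on the wild type arrays, so its wild type spread held both lymphoma values of 1260 and 1381. Manf, a secreted stress-induced factor, had 665 and 411 against 544 and 525. Sdf2l1, an ER chaperone partner, had 1167 and 945 against 931 and 1288, and Creld2, another stress-induced ER protein, had 966 and 752 against 621 and 885. For these genes the distance between replicates was larger than that between groups. Hyou1, the ER HSP110, differed by 0.19 (SE 0.21) and Dnajb11, an ER J protein, by 0.22 (SE 0.23). Pdia4, a disulfide isomerase, differed by -0.16 (SE 0.21). The median of the 11 genes was 0.03 and ran from -0.09 to 0.21 when 1 array was left out.

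All 4 genes of ER-associated degradation had negative differences. Herpud1, which gathers the degradation complex in the ER membrane and is strongly induced by ER stress, had 2984 and 2076 in wild type and 1407 and 1226 in lymphoma. Both lymphoma arrays were low, and the difference was -0.92 (SE 0.22, 95% interval -1.46 to -0.38, adjusted p = 0.0894 in limma). The adjusted p passed under quantile normalization (0.0433) and without lymphoma array 1 (0.0155), and under the other alternatives it was 0.0518 to 0.387. Edem1, a lectin that hands misfolded glycoproteins to degradation, had 2460 and 2561 against 1689 and 1881 (-0.49, SE 0.16, adjusted p = 0.197 in limma). The arrays of each group were close together and the groups were apart.

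The ubiquitin ligase Syvn1 and its partner Sel1l differed less. Syvn1 had 1173 and 933 in wild type and 879 and 899 in lymphoma, just below the wild type range (-0.23, SE 0.19). Sel1l had 1290 and 1034 against 946 and 1117, with overlapping groups (-0.17, SE 0.20). Without wild type array 1 the differences were -0.07 for Syvn1 and -0.01 for Sel1l, and Sel1l was -0.05 without lymphoma array 1. On the same lymphoma arrays the plasma cell markers Jchain (-4.53, SE 0.77, adjusted p = 0.0302 in limma) and Sdc1 (-0.99, SE 0.27, adjusted p = 0.129 in limma) had lower values. Of the 6 plasma cell markers, 3 fell and none rose in limma, with a list median of -1.74. Their part in the lower ER-associated degradation values was not tested.

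Of the ER stress sensors, Eif2ak3, the kinase PERK, had 622 and 596 in wild type and 370 and 441 in lymphoma. Both lymphoma arrays were low without overlap, and the difference was -0.59 (SE 0.19, 95% interval -1.05 to -0.14, adjusted p = 0.181 in limma). Atf6, whose cleaved form is a transcription factor, had 1020 and 845 against 868 and 661 with overlapping groups (-0.29, SE 0.22), and between -0.49 and -0.10 with 1 array left out. Ern1, the nuclease and kinase IRE1, had 676 and 433 against 467 and 917. Lymphoma array 2 was high and lymphoma array 1 was within the wild type range, so the difference of 0.27 (SE 0.37) became -0.21 when lymphoma array 2 was left out and -0.05 when wild type array 2 was.

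**Figure D3:**
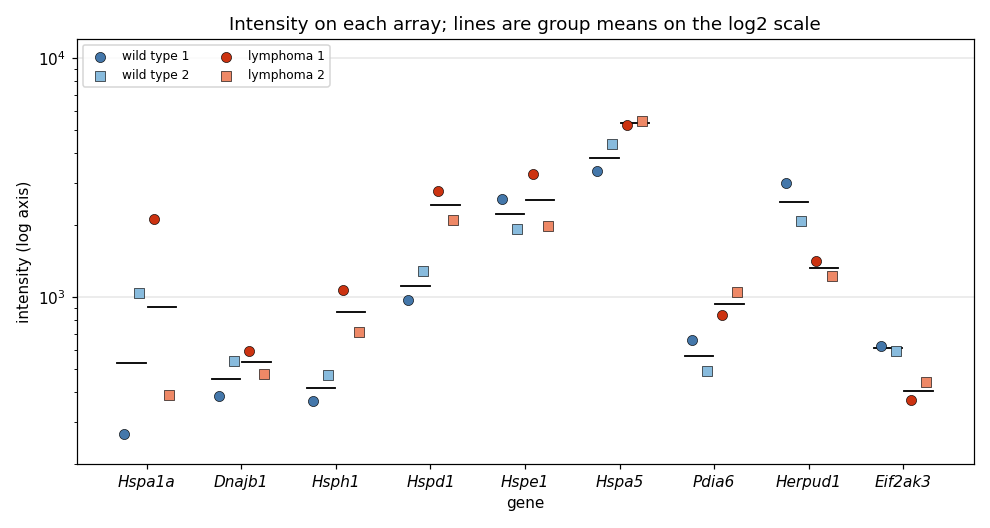
Intensity (y axis, log scale) of 9 of the genes (x axis) on each array, with a short line at each group's mean on the log2 scale. Hspd1 and Hsph1 are high on both lymphoma arrays, Herpud1 and Eif2ak3 are low on both, and Hspa1a is high on 1 array of each group (1035 and 2126).

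Genes downstream of the sensors and other parts of these pathways were examined in 6 further lists, of which 116 genes were measured. In limma 3 of them rose and 1 fell at the adjusted p, which is 2.59% and 0.862% against 1.82% and 2.46% of all genes. Among 30 other cytosolic chaperones and co-chaperones, 2 rose, none fell and 24 had positive differences, with a median of 0.31. Hspa4l, an HSP110 family member, had 269 and 258 in wild type and 506 and 481 in lymphoma and rose by 0.90 (SE 0.17, adjusted p = 0.0443 in limma). Hsf2, a heat shock factor related to HSF1, had 172 on both wild type arrays, and in lymphoma 323 and 301. It rose by 0.86 (SE 0.17, adjusted p = 0.0492 in limma). The call on Hspa4l was lost with the replicate number as a block (0.0549), and that on Hsf2 there (0.0567), with a pseudocount of 16 (0.0516), without a variance trend (0.0540) and without lymphoma array 1 (0.0558). Both were also lost without either wild type array, as were all calls in the table.

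Among 23 other ER chaperones and folding enzymes, 1 fell, none rose and 14 had positive differences, with a median of 0.28. Txndc5, a disulfide isomerase abundant in plasma cells, had 1219 and 898 in wild type and 491 and 464 in lymphoma and fell by 1.13 (SE 0.21, adjusted p = 0.0411 in limma). This call was lost with array medians subtracted (0.0521). Of 16 other genes of ER-associated degradation none passed, and their median was 0.16, opposite in sign to that of the 4 listed genes. The largest differences were those of Derl3, which is also a plasma cell marker (1151 and 611 against 304 and 253, -1.60, SE 0.32, adjusted p = 0.0503 in limma), and the mannosidase Edem3 (-0.50, SE 0.22). The adjusted p of Derl3 passed under quantile normalization (0.0415), with the dimmest genes left out (0.0463), with a robust trend (0.0397), with probe sets averaged (0.0495), with the replicate block (0.0244) and without lymphoma array 1 (0.00103) or 2 (0.00307). It missed the threshold under the other alternatives, at 0.0551 to 0.221. At an unadjusted p under 0.05 in limma 1 of the 16 was higher and 1 lower, 6.25% each way against 8.73% and 6.92% of all genes.

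Of 23 factors and targets of the unfolded protein and integrated stress responses, 1 rose, none fell and the median was -0.07. Differences were positive for 10 of the 23 and negative for 13, or 43.5% positive against 43.8% of all genes. Asns, the asparagine synthetase induced through ATF4, had 362 and 316 in wild type and 1202 and 726 in lymphoma and rose by 1.46 (SE 0.27, adjusted p = 0.0408 in limma). The transcription factors of the PERK and IRE1 arms overlapped between the groups. Atf4 had 495 and 599 against 531 and 511, Ddit3, the factor CHOP, had 350 and 260 against 301 and 256, and Xbp1 had 2893 and 1931 against 1811 and 2273. Among these 3 the differences lay between -0.22 and -0.07.

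**Figure D4:**
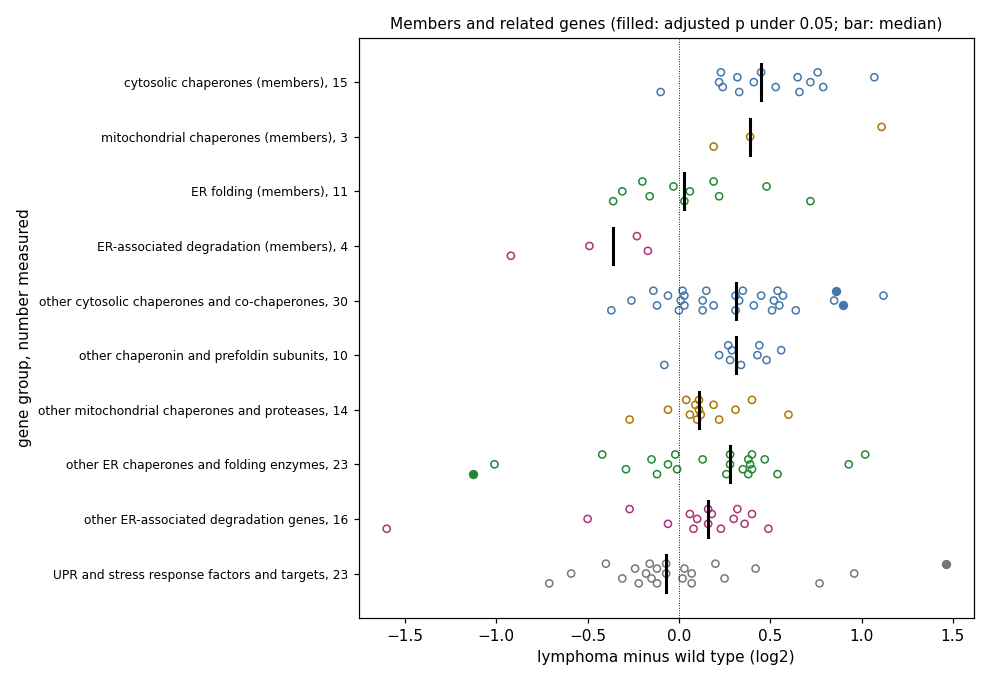
Log2 difference between lymphoma and wild type (x axis) for every measured gene of 4 compartments of the list of 39 and of 6 further lists (y axis, with the number of genes), where filled points passed an adjusted p of 0.05 in limma and black bars are medians. Medians run from -0.36 for the listed genes of ER-associated degradation to 0.45 for cytosolic chaperones, and the filled points are Hspa4l, Hsf2, Txndc5 and Asns.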

How the data were processed

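The authors' deposited values are intensity values on a linear scale, 1 per probe set and array, made with Affymetrix Expression Console per the submitters' processing notes. The version and the summarisation and normalization steps were not given in the sources used here. From these, log2 was taken with no pseudocount or filter. No detection calls were used, so differences of dim probe sets can be understated. Probe sets with 1 symbol (21789 of 35556) were named from GEO's platform annotation, and the one with the highest mean was used per gene, which left 19938 genes. Groups were compared in limma 3.58.1 (R 4.3.3) with a variance trend, 2 residual and 4.24 prior degrees of freedom, two-sided, with Benjamini-Hochberg adjustment over all genes. The number of arrays limits the precision (median SE 0.20). Data for lymphoma against wild type were simulated over 19938 genes, of which 200 were changed. There, 3% of changes of 1 log2 unit and 82% of changes of 2 were recovered. The real data had 852 calls, so the adjusted threshold was reached at larger unadjusted p-values. These shares therefore do not give the power in the real data. Named genes are the 39 listed genes, Tet2, in each further list up to 4 called genes (or the 2 largest differences), and marker examples. Xbp1, Atf4 and Ddit3 fall outside that rule and were chosen after their values were seen. The listed genes, lists and tests were chosen with earlier results of these data known. Promoter sequences are from RefSeq. Alternatives were other normalizations, leaving out the dimmest genes by mean log2 value, a pseudocount, variance priors, a replicate block, averaged probe sets and leaving out each array. Figures were drawn with matplotlib 3.10.9.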

Additional observations from a re-analysis of the deposited data

How the results depend on the processing

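No listed gene passed the adjusted p in limma with all arrays, and 24 of 36 kept their sign under every alternative run. Counts of listed genes called higher were 1 with array medians subtracted, with the dimmest genes left out and with a robust trend (Hspd1 each time), and 0 to 5 when 1 array was left out. Counts called lower were 1 under quantile normalization (Herpud1) and 0 to 1 when 1 array was left out. Over all genes, 0 to 1057 rose and 0 to 843 fell when 1 array was left out. In such fits the group left with 1 array is assumed to vary like the other. The labels link same-numbered samples only by the number. Deviations of same-numbered arrays correlated at 0.23, and whether they shared a batch was not tested. With the replicate block 0 listed genes were called, and 984 of all genes against 852. Cytosolic medians ran from 0.36 to 0.50, mitochondrial medians from 0.23 to 0.56, ER folding medians from -0.09 to 0.21, and those of ER-associated degradation from -0.43 to -0.30, when 1 array was left out. Signs turned for Dnajb9 with array medians subtracted (0.05) and for Manf under quantile normalization (-0.02). Leaving out 1 array turned 12 signs, with ranges of -0.01 to 0.68 for Cct5, -0.46 to 0.05 for Creld2, -0.02 to 0.48 for Dnajb1, -0.03 to 0.47 for Dnajb11, -0.51 to 0.46 for Dnajb9, -0.21 to 0.76 for Ern1, -0.43 to 2.02 for Hspa1a, -0.23 to 0.04 for Hspb1, -0.17 to 0.56 for Hspe1, -0.32 to 0.38 for Manf, -0.38 to 0.07 for Pdia4 and -0.17 to 0.29 for Sdf2l1. The cause was not tested.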

Other observations

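Cytosolic and ER chaperones differed in which array of a group was the higher one, a pattern described after the values were seen and not tested. Of the 15 cytosolic genes, 7 were higher on wild type array 2 than on array 1 and also higher on lymphoma array 1 than on array 2, namely Hspa1a, Hspa8, Hspa4, Hsph1, Hsp90aa1, Dnaja1 and Dnajb1. Stip1 and Bag3 had the opposite order in both groups. Hspd1 had the first order, that of the 7 genes, which 20.2% of all genes had. None of the 11 ER folding genes had it. Instead 7 of them, Hyou1, Dnajb11, Dnajc3, Pdia4, Pdia6, Sdf2l1 and Creld2, had the opposite order, with wild type array 1 and lymphoma array 2 higher, as 18.4% of all genes did. Sel1l, Syvn1, Ern1 and Eif2ak3 shared the order of the ER genes. In the further lists the opposite order was also the more frequent one for ER genes, with 11 of 23 other ER folding genes against 1 with the first order, and 7 of 16 other degradation genes against 1. It was also the more frequent one for the 30 other cytosolic genes, with 11 against 4.

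Immediate early genes, which respond quickly to stimulation, had a median log2 difference of -0.18 between the groups over 9 genes. Their summed intensity was 14825 on wild type array 1 and 23748 on wild type array 2, the array on which Hspa1a was 1035 against 266, and it was 17545 and 19063 on the lymphoma arrays. Fos had 1179 and 1651 in wild type and 1259 and 1328 in lymphoma. Fosb had 1247 and 3021 in wild type and 1742 and 1680 in lymphoma. The highest wild type array was therefore the same for Hspa1a and the immediate early sum, while the highest lymphoma array was not. Their part in the Hspa1a values was not tested.

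The ER oxidases had differences of opposite sign. Ero1a had 625 and 662 in wild type and 1062 and 1606 in lymphoma (1.02, SE 0.24, adjusted p = 0.0815 in limma), and Ero1b had 485 and 500 against 213 and 282 (-1.01, SE 0.21, adjusted p = 0.0553 in limma). For both genes the groups did not overlap and neither passed. These genes were chosen after their values were seen.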
